A study of Mus musculus with 6 samples.

Results

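The 9 genes described here encode transcription factors and co-regulators of Purkinje cell identity: the early B-cell factor genes Ebf1 and Ebf3, the LIM homeodomain genes Lhx1 and Lhx5, the co-repressor gene Skor2, the nuclear receptor gene Rora, and the forkhead genes Foxp1, Foxp2 and Foxp4. They were chosen by name from the 43346 genes of the count table, and all 9 were among the 16934 genes with enough counts to be tested. RNA came from the cerebellum of 6 mice aged 15 months, listed under the broader tissue name brain. The 3 KO mice were homozygous for loss of Tmem106b (Tmem106b-/-) and the 3 wild-type (WT) mice were Tmem106b+/+, with 1 female and 2 males per genotype and 1 library per mouse. No treatment is listed, and neither the strain nor the way the allele was made is stated in the labels.

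Purkinje cells are the large inhibitory neurons that form the only output of the cerebellar cortex. LHX1 and LHX5 act with the cofactor LDB1 early in Purkinje differentiation, SKOR2 holds the young cells to the Purkinje fate, and RORA drives the growth of the dendritic tree, so that staggerer mice, which lack functional RORA, lose most Purkinje cells. Several of these factors stay expressed in adult Purkinje cells, and some are also made elsewhere, such as EBF1 in vascular mural cells and RORA in molecular layer interneurons. The title of the study names Purkinje cell death, and the question put to these 9 genes was whether their RNA differed between the genotypes. In whole tissue, fewer Purkinje cells and less RNA per Purkinje cell cannot be told apart.

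Library totals ran from 25245778 to 31135185 counts. Tmem106b, the check of the labels, was at 230 to 267 CPM (the standard unit for counts scaled by library size, here also by composition) in the WT mice and 62.7 to 69.7 CPM in the KO mice, a log2 fold change of -1.88 (SE 0.08, edgeR quasi-likelihood adjusted p = 1.37e-04). The labelled tissue carried its defining neuron, with the Purkinje markers Itpr1 at 3681 to 3841 CPM and Calb1 at 1163 to 1254 CPM in WT. Itpr1 fell in KO (log2 fold change -0.65), while Calb1 (-0.43, SE 0.09, edgeR adjusted p = 0.134) and Pcp2 (-0.64, SE 0.26, 0.549) did not pass the threshold. In 6 of 15 alternative fits Calb1 did pass, as in DESeq2 (adjusted p = 0.0033). Pcp2 passed in 1, without KO replicate 3 (-0.91, edgeR adjusted p = 0.0329), and was at -0.30 without WT replicate 1. Without either female, the sex term of the model takes up the other, so only the males inform the genotype difference. Calb1 passed in both of those fits and in males only, which are therefore not separate checks. Choroid plexus markers, which depend on the piece of tissue taken, summed to 80.7 CPM in WT replicate 1 and to 1616 to 5047 CPM in the other 5 libraries.

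All 9 factors had a log2 fold change below 0 in the KO mice, from -0.55 for Skor2 to -0.02 for Foxp1. Their median was -0.33, where the median of all genes tested was 0.00029 and 49.9% of genes lay below 0. The median of the members was -0.20 without WT replicate 1, -0.21 without KO replicate 1 and -0.21 in males only. Each of these values rests on the males, so they are 1 check and not separate ones. None of the 9 passed the adjusted threshold of 0.05 in edgeR's quasi-likelihood test, which called 0.148% of all genes lower (adjusted p-values of 0.139 to 0.957 for the members). An unadjusted p under 0.05 was reached by 5 of the 9 (Lhx1, Skor2, Foxp2, Ebf3 and Foxp4), a level that 4.25% of all genes reached in this direction. DESeq2 called 1 member, Lhx1, where it called 0.833% of genes lower, and limma-voom called 0, where it called 0.165% of genes lower. In 5 of the 9 (Lhx1, Skor2, Foxp2, Ebf3 and Ebf1) every KO mouse lay below every WT mouse, as did 6.35% of all genes. At the looser adjusted threshold of 0.10, which 0.402% of all genes passed in this direction, the count of members was still 0. These counts describe genes picked with earlier results of the same libraries known, so they are not independent evidence of a direction.

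**Figure D1:**
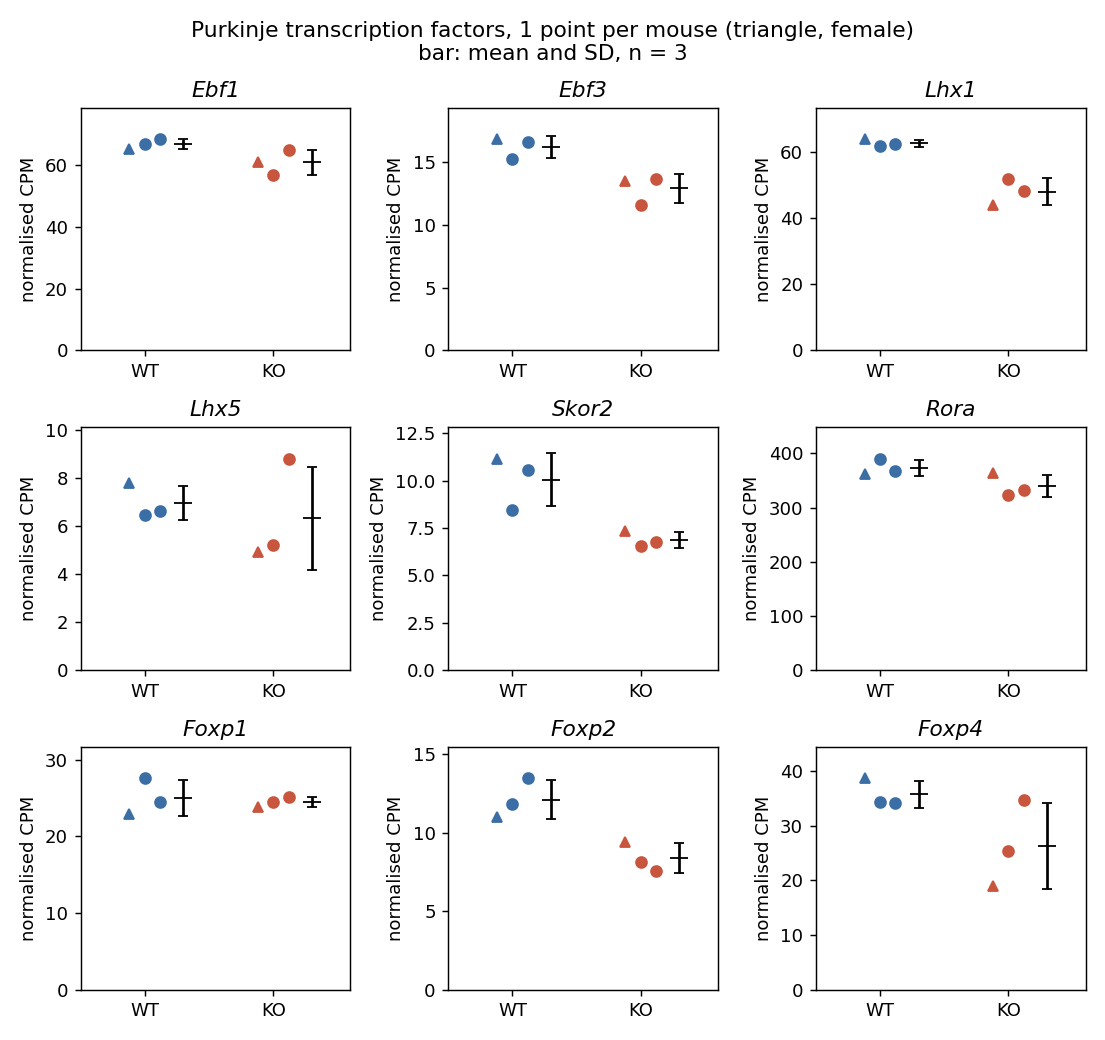
Normalised CPM of each of the 9 genes (vertical axes, starting at 0) in the 3 WT and 3 KO mice, with 1 point per mouse, a triangle for the female, and a bar for the mean and SD of each group. Lhx1, Skor2, Foxp2, Ebf3 and Ebf1 show no overlap between the genotypes, while the KO values of Lhx5 run from 4.92 to 8.79 CPM and those of Foxp4 from 19.0 to 34.7 CPM.

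**Figure D2:**
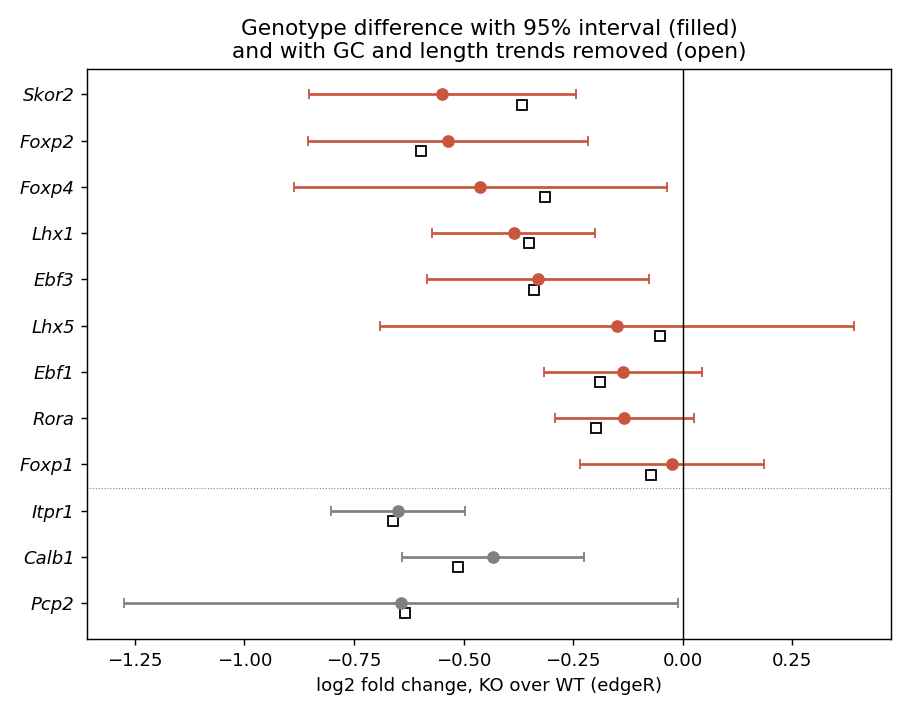
Log2 fold change of KO over WT (horizontal axis) for the 9 genes and, in grey, the Purkinje markers Itpr1, Calb1 and Pcp2, with the 95% interval of the edgeR fit. Open squares give the value after the GC content and length trends of each library were removed. The intervals of Skor2, Foxp2, Foxp4, Lhx1 and Ebf3 lie below 0, and those of Lhx5, Ebf1, Rora and Foxp1 reach above it.

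Lhx1 had the lowest p of the set. It was at 64.0, 61.9 and 62.5 CPM in WT replicates 1 to 3 and at 43.9, 51.9 and 48.4 CPM in KO replicates 1 to 3. The WT mice were tightly grouped (62.8 ± 1.08 CPM, SD, n = 3) and the KO mice, at 48.1 ± 3.99 CPM (SD, n = 3), had 76.6% of that level. The log2 fold change was -0.39 (SE 0.08, 95% interval -0.57 to -0.20), with an edgeR adjusted p of 0.139. Lhx1 passed in 3 of 15 alternative fits, among them DESeq2 (adjusted p = 0.0115) and edgeR without a filter on low counts (adjusted p = 0.0311, where 0.456% of genes were called lower), and its adjusted p ran from 0.0115 to 0.51 over all 15.

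Lhx1 (ENSMUSG00000018698) lies on the minus strand of chromosome 11 at 84518284 to 84525535 of mm10. The long non-coding RNA gene Lhx1os lies on the plus strand at 84525660 to 84535831, so that the 2 genes start back to back with 124 bases between them. Lhx1os was at 29.6, 28.8 and 30.9 CPM in WT and at 24.4, 23.7 and 26.2 CPM in KO. It too was lower in every KO mouse than in every WT mouse (log2 fold change -0.27, SE 0.09, edgeR adjusted p = 0.382), without passing the threshold in any of the 15 alternatives. The models do not overlap, so no read inside one is shared by position with the other. The promoter window of Lhx1 (250 bases before to 50 after the start, RefSeq, GRCm38.p6, chr11:84525485-84525784, minus strand) is shown because it holds both starts, and the capitals mark the bases between the 2 gene models.
Lhx1 promoter: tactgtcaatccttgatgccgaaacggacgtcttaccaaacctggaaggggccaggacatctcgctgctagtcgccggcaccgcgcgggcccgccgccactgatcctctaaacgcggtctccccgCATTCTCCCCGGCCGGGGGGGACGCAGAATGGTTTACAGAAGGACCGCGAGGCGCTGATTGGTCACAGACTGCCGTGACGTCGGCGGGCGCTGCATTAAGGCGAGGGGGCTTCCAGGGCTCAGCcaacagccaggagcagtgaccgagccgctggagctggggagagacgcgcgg

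Lhx5, the close relative of Lhx1 that acts with it in the same cells during development, varied most among the KO mice relative to its level. It was at 7.78, 6.46 and 6.64 CPM in WT and at 4.92, 5.22 and 8.79 CPM in KO, so that KO replicate 3 held the highest value of all 6 and the other 2 KO mice the lowest. The log2 fold change was -0.15 (SE 0.23, 95% interval -0.69 to 0.39, edgeR adjusted p = 0.881). With 125 to 243 counts per library, counting error alone was as large as 8.94% of the lowest value. Without KO replicate 3 the value was -0.45. It was 0.09 both without KO replicate 1 and in males only, as the genotype difference rests on the males in either fit. The ratio of Lhx1 to Lhx5 differed by -0.20 on the log2 scale between KO and WT, and the groups overlapped (exact permutation p = 0.7).

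Skor2, a co-repressor of the SKI family made by Purkinje cells, had the lowest fold change of the 9. It was at 11.1, 8.47 and 10.5 CPM in WT and at 7.32, 6.52 and 6.73 CPM in KO, with 68.2% of the WT mean left. The spread was in the WT mice (SD 1.41 against 0.41 CPM in KO, n = 3 each), and the lowest WT mouse was above the highest KO mouse. The log2 fold change was -0.55 (SE 0.13, 95% interval -0.85 to -0.24, edgeR adjusted p = 0.2). Skor2 passed in 0 of the 15 alternatives, at adjusted p-values from 0.0875 to 0.709. With GC content and length trends removed it was at -0.37.

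The EBF genes encode helix-loop-helix factors of neuronal differentiation. Ebf3 was at 16.8, 15.2 and 16.6 CPM in WT and at 13.5, 11.6 and 13.6 CPM in KO. All 3 KO mice lay below all 3 WT mice, with a log2 fold change of -0.33 (SE 0.11, 95% interval -0.58 to -0.08, edgeR adjusted p = 0.395). Ebf1 was at 65.4, 67.0 and 68.5 CPM in WT and at 61.0, 56.8 and 65.1 CPM in KO. Here the groups met almost edge to edge, and the log2 fold change was -0.14 (SE 0.08, 95% interval -0.32 to 0.04, edgeR adjusted p = 0.689). Their relative Ebf2, which marks a subset of Purkinje cells, passed at a log2 fold change of -1.37 (SE 0.15, edgeR adjusted p = 0.0206). That call was lost without WT replicate 2 and without WT replicate 3, where Tmem106b was the 1 gene called in the whole table.

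The EBF genes were also compared with each other. The ratio of Ebf1 to Ebf2 was higher in the KO mice by 1.24 on the log2 scale, at 1.01, 1.54 and 1.17 against -0.19 to 0.12 in WT, and that of Ebf3 to Ebf2 by 1.05, at 0.89, 1.29 and 0.97 against -0.11 to 0.08. The ratio of Ebf3 to Ebf1 was lower by 0.19, at -0.13, -0.24 and -0.21 against -0.09 to 0.09. Each of these ratios separated the genotypes completely, at a two-sided exact permutation p of 0.1, the smallest that 3 against 3 can give. They were among 7 ratios within families, compared and chosen after the values were seen. Both ratios to Ebf2 carry the decrease of Ebf2, called in the same libraries. Their separation is therefore no further result about Ebf1 or Ebf3. How often ratios of other genes separate the genotypes was not tested. Markers of endothelial and mural cells, which also make EBF1, summed to 393 to 496 CPM in WT and 438 to 485 CPM in KO, with 0 of 11 past the threshold and a median log2 fold change of 0.07. B-cell markers, for which EBF factors are named, were near 0, with 4 of 5 untested and the fifth, Cd79a, at -0.35 (SE 0.37). The part of these cells in the Ebf1 value was not tested.

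The promoter of Ebf3 (RefSeq, GRCm38.p6, chr7:137314396-137314695, minus strand) is shown because it was the window among those of the EBF genes with a match to the EBF letters CCCNNGGG, marked in capitals.
Ebf3 promoter: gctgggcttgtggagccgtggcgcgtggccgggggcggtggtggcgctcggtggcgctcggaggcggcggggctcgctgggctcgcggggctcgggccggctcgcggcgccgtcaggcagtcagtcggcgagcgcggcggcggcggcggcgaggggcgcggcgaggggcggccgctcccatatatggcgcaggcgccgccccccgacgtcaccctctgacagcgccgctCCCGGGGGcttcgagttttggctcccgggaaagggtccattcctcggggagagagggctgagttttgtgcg
Promoter windows were found for 6 of the 9 genes, 9 windows in all, and were searched on both strands. CCCNNGGG was in 2 of the 9, 1 each of Ebf3 and Foxp1, and in 13.7% of 32851 windows of all genes. The LIM homeodomain letters TAATTA were in 1, a Foxp1 window (5.29% of all). The ROR half-site AGGTCA and the forkhead letters TGTTTAC were in 0 of the 9, against 16.3% and 3.65% of all windows. These counts describe letters only.

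Rora, the nuclear receptor gene whose loss gives the staggerer phenotype, was by far the most abundant member. It was at 361, 390 and 367 CPM in WT and at 363, 324 and 333 CPM in KO. Both KO males were below every WT mouse and the KO female was not, so the groups overlapped. The log2 fold change was -0.13 (SE 0.07, 95% interval -0.29 to 0.03, edgeR adjusted p = 0.649). Of 7 genes known to depend on RORA in Purkinje cells, all had a log2 fold change below 0, with a median of -0.43, and 1 passed, Itpr1 (-0.65, SE 0.07, edgeR adjusted p = 0.0134). DESeq2 called 2, and without WT replicate 2, WT replicate 3 or KO replicate 2 the edgeR count was 0. The others include Shh, the mitogen that Purkinje cells send to granule cell precursors (-0.43, SE 0.18, edgeR adjusted p = 0.533) and the glutamate transporter gene Slc1a6 (-0.27, SE 0.09, 0.364). These 7 were picked as Purkinje genes, and 6 of them are also in the marker list described further on.

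Among 13 coregulators and competitors of RORA 0 passed, in edgeR or in DESeq2, and their median was -0.02. The lowest p-values belonged to Nr1d2, a repressor that competes for the same DNA sites (0.22, SE 0.07, edgeR adjusted p = 0.324), and to the coactivator gene Crebbp (0.17, SE 0.07, 0.546). Each was higher in all 3 KO mice than in all 3 WT mice, as were 7.77% of all genes, and had an unadjusted p under 0.05, as did 4.71% of all genes in this direction.

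The FOXP genes encode forkhead repressors that bind DNA as dimers with each other. Foxp2, best known from the inherited speech disorder caused by mutations of the human gene, was at 11.01, 11.8 and 13.4 CPM in WT and at 9.40, 8.14 and 7.53 CPM in KO. The genotypes did not overlap, and 69.1% of the WT mean was left (log2 fold change -0.54, SE 0.14, 95% interval -0.85 to -0.22, edgeR adjusted p = 0.238). Foxp2 passed in 1 of 15 alternatives, that with GC content and length trends removed (-0.60, SE 0.11, edgeR adjusted p = 0.0265, where 1.17% of genes were called lower), which was chosen after seeing the data.

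Foxp2 (chromosome 6, 14901349 to 15441977 of mm10, plus strand) begins 1.81 Mb beyond the end of Tmem106b. Of 26 other genes tested within 5 Mb of Tmem106b, 0 passed in edgeR and 1 in DESeq2, 8 had an unadjusted p under 0.05 in either direction (8.96% of all genes tested did), and the median log2 fold change was 0.10. Foxp2 had the second-lowest value of these 26. Whether DNA linked to the knockout allele differs between the genotypes near Foxp2 was not tested.

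Foxp4, which Purkinje cells use to keep their dendrites, varied widely among the KO mice. It was at 38.6, 34.4 and 34.1 CPM in WT and at 19.0, 25.4 and 34.7 CPM in KO, where replicate 3 lay within the WT range and replicate 1 lowest of all 6. The log2 fold change was -0.46 (SE 0.18, 95% interval -0.89 to -0.04, edgeR adjusted p = 0.514). Without KO replicate 3 it was -0.66 and passed (edgeR adjusted p = 0.0329, where 0.517% of genes were called lower). Without KO replicate 1, where the genotype difference rests on the males, it was -0.20. The female KO and WT mice differed by -1.02 and the males by -0.21, with 1 female per genotype. The interaction of sex and genotype did not pass in edgeR (adjusted p = 0.131, the lowest of the 9 genes). The trend with GC content and length at Foxp4 was -0.46 in the KO female and 0.18 in the WT female.

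Foxp1, expressed by many neurons and by immune and vascular cells as well, was nearly level. It was at 22.9, 27.5 and 24.5 CPM in WT and at 23.9, 24.5 and 25.2 CPM in KO, all 3 KO mice inside the WT range. The log2 fold change was -0.02 (SE 0.09, 95% interval -0.23 to 0.18, edgeR adjusted p = 0.957). The ratio of Foxp2 to Foxp1 was lower by 0.51 on the log2 scale in KO, at -0.30, -0.54 and -0.69 against -0.17 to 0.18 in WT (exact permutation p = 0.1). For the ratio of Foxp4 to Foxp1 the difference was -0.46 and the groups overlapped (exact permutation p = 0.2). For that of Foxp2 to Foxp4 it was -0.05, with overlap as well (exact permutation p = 0.9). The gene model Gm20696 overlaps Foxp1 on the same strand with 7.1% as many counts, so reads of the pair may be shared.

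Compared per length, as CPM per kilobase of gene model (RPKM), the order of the levels in WT was Rora at 28.5 ± 1.16, Lhx1 at 15.4 ± 0.27, Foxp4 at 7.25 ± 0.51, Ebf1 at 6.86 ± 0.16, Ebf3 at 3.23 ± 0.17, Skor2 at 3.20 ± 0.45, Lhx5 at 2.66 ± 0.27, Foxp1 at 1.75 ± 0.17 and Foxp2 at 0.90 ± 0.09 RPKM (SD, n = 3 each). The level of Rora was 31.7 times that of Foxp2. Neighbours in this order that overlapped over the WT mice were Foxp4 with Ebf1, Ebf3 with Skor2, and Skor2 with Lhx5. In KO Rora, Lhx1, Ebf3, Foxp1 and Foxp2 kept their places in the order, while Ebf1 (6.25 ± 0.42 RPKM) was above Foxp4 (5.35 ± 1.599 RPKM) and Skor2, at 2.18 ± 0.13 RPKM, was below Lhx5, at 2.41 ± 0.82 RPKM (SD, n = 3 each). The model length covers all annotated exons, so genes with long untranslated exons that are little used are underestimated.

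**Figure D3:**
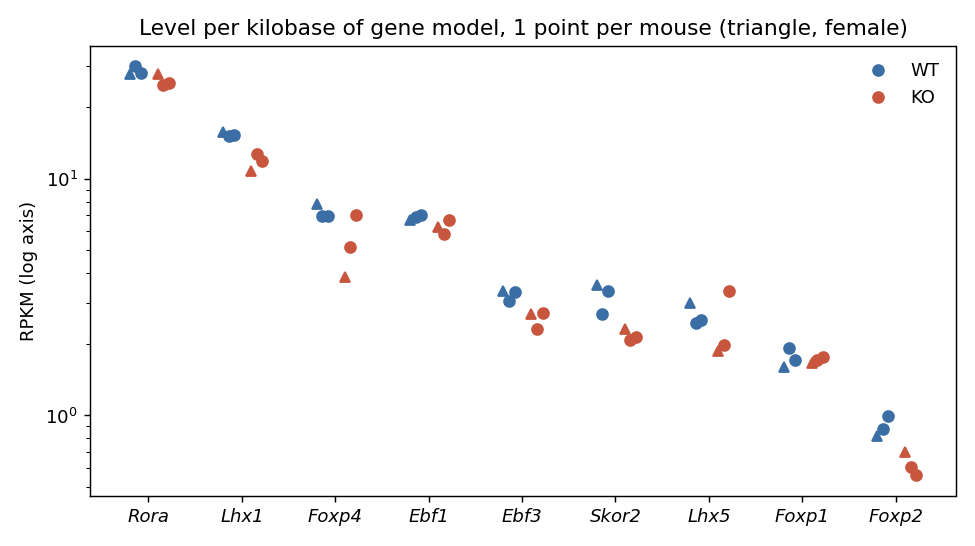
RPKM of the 9 genes on a log axis, in the order of their WT means, with 1 point per mouse, blue for WT and red for KO, and triangles for the females. The points run from 29.8 RPKM for Rora in WT replicate 2 to 0.56 RPKM for Foxp2 in KO replicate 3.

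To set the factors beside the rest of the Purkinje transcriptome, each was taken relative to 25 Purkinje markers that are no transcription factors. Of these 25, all had a log2 fold change below 0, as did 49.9% of all genes, and their median was -0.50. In edgeR 8 fell, where 0.148% of all genes were called lower. Among the 8 were Itpr1, Arhgef33, Car8, whose product binds the IP3 receptor, and Rgs8, which dampens signals from G protein-coupled receptors (-0.65, -0.67, -0.62 and -0.65). DESeq2 called 17 of the 25, where it called 0.833% of all genes lower. The 8 calls were 0 without WT replicate 2, WT replicate 3 or KO replicate 2, each left out in turn. They were 16 without KO replicate 3, where 0.517% of all genes were called lower. Without KO replicate 1, a fit that rests on the males, they were 13, where 117 genes of the whole table passed in either direction. The mean log2 level of the 25, relative to the WT mice, was -0.46, -0.55 and -0.36 in KO replicates 1 to 3 and -0.06 to 0.05 in WT.

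Foxp1, Rora, Ebf1 and Ebf3 were higher relative to these markers in every KO mouse than in every WT mouse. So were 68.4% of all genes tested, since a gene with the same CPM in both genotypes lies 0.46 higher on this scale, so the count of 4 of 9 sets nothing apart. The median of all genes tested was 0.46 as well. All 9 members were below that 0.46, which restates that their log2 CPM was lower in KO and is no further result. Foxp1 was higher by 0.43 on the log2 scale (0.40, 0.53 and 0.37 in KO against -0.18 to 0.20 in WT), Rora by 0.32 (0.43, 0.35 and 0.19 against -0.10 to 0.13), and Ebf1 by 0.32 (0.33, 0.31 and 0.31 against -0.09 to 0.06). Ebf3 was higher by 0.13 (0.20, 0.07 and 0.11 against -0.03 to 0.03). Each had a two-sided exact permutation p of 0.1, the smallest possible, over 9 comparisons.

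The other 5 factors overlapped with WT on this scale. Lhx1 was at -0.05, 0.28 and -0.02 in KO (difference 0.07, exact permutation p = 0.9), Skor2 at 0.02, -0.06 and -0.21 (-0.08, exact permutation p = 0.5), and Foxp2 at 0.11, -0.01 and -0.32 (-0.08, exact permutation p = 0.6). Lhx5 (0.27, exact permutation p = 0.2) and Foxp4 (-0.02, exact permutation p = 1) overlapped with WT as well. The KO values of Lhx5 were -0.03, 0.15 and 0.69, and those of Foxp4 were -0.45, 0.06 and 0.31. The marker list was written with its decrease in these libraries known, so these differences are not independent evidence.

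**Figure D4:**
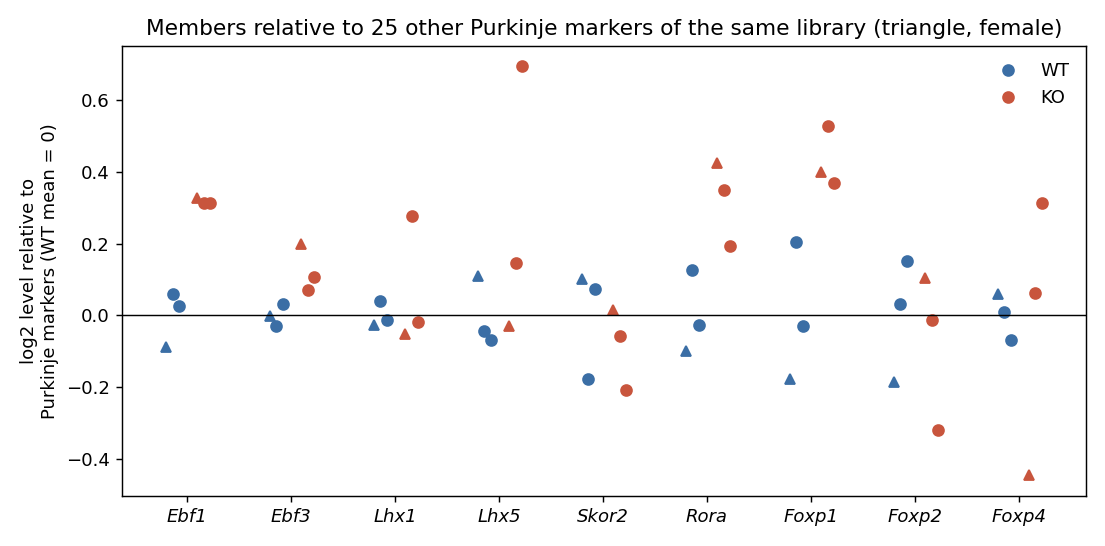
Log2 CPM of each of the 9 genes minus the mean log2 CPM of 25 other Purkinje markers in the same library, with the WT mean set to 0 (vertical axis), 1 point per mouse, blue for WT, red for KO and triangles for the females. The KO points of Ebf1, Ebf3, Rora and Foxp1 lie above all WT points, and those of Foxp4 run from -0.45 to 0.31.

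GC content, which differs widely among the 9, moved with some of these values. Over the longest transcript it was 40.9% for Rora, 42.6% for Foxp2 and 43.1% for Ebf1, and 59.3% for Lhx5, 63.4% for Foxp4 and 64.3% for Skor2. KO replicate 1 had lower values for GC-rich genes throughout the table: the trend at the GC content and length of Foxp4 was -0.46 in KO replicate 1, 0.22 in KO replicate 3 and 0.18 in WT replicate 1, and at those of Skor2 it was -0.48, 0.24 and 0.20. With these trends removed, Foxp4 was at -0.31 (SE 0.08, edgeR adjusted p = 0.0797) and Skor2 at -0.37 (SE 0.16, 0.364). Among GC-poor members Rora was at -0.20 (SE 0.05, 0.103) and Ebf1 at -0.19 (SE 0.08, 0.337). Lhx1 was at -0.35 (SE 0.06) and passed (edgeR adjusted p = 0.0164). Lhx1 and Foxp2 were the 2 members called in this fit, and the median of the 9 was -0.31.

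**Figure D5:**
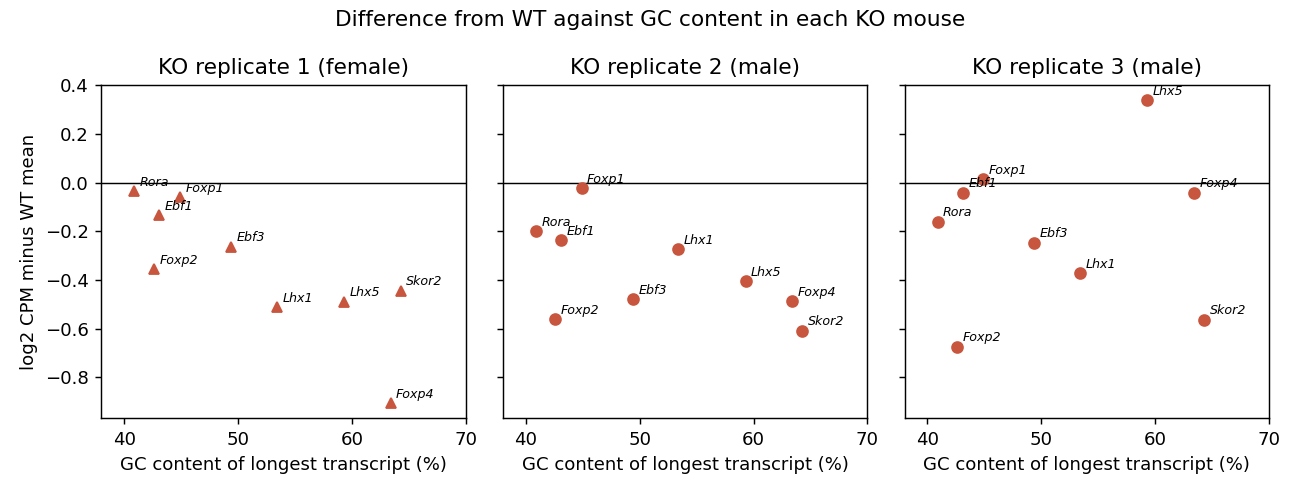
Log2 CPM of the 9 genes minus the WT mean (vertical axis) against the GC content of the longest transcript in percent (horizontal axis), in KO replicates 1 to 3, with 1 labelled point per gene. In KO replicate 1 the GC-rich Foxp4 lies at -0.91, while in KO replicate 3 it lies at -0.04 and Lhx5 at 0.34.

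Family relatives and partners of the 9 were taken from lists written with earlier results known. Of 16 relatives 8 had enough counts to be tested, and 1, Ebf2, fell. The WT mice had 16.2 ± 1.64 CPM of Ebf2, against 6.27 ± 1.40 CPM in the KO mice (SD, n = 3 for each genotype). Of the 8 tested, 6 lay below 0 and 2 above. An unadjusted edgeR p under 0.05 was reached by 2 in the lower direction, as by 4.25% of all genes. Lhx3 had a log2 fold change as low as that of Ebf2 (-1.37, SE 0.31, edgeR adjusted p = 0.162). Its mean was only 0.90 CPM in WT and 0.34 CPM in KO. The others include Rorb (log2 fold change 0.15, SE 0.15) and Skor1 (-0.19, SE 0.12), with edgeR adjusted p-values of 0.819 and 0.709. Of 10 cofactors of LIM homeodomain proteins 0 passed, with a median of -0.11. Ldb2, which bridges LIM factors into pairs, had the lowest p (-0.90, SE 0.25, edgeR adjusted p = 0.275), with 2.89 ± 0.66 CPM in the WT mice against 1.54 ± 0.29 CPM in the KO mice (SD, n = 3 for each genotype), and Lmo2, whose product binds LDB proteins, was next (-0.27, SE 0.10, 0.47). Of 10 partners of EBF, FOXP and SKOR proteins 0 passed and 9 lay below 0, with a median of -0.08. The remodeller gene Chd3 (-0.26, SE 0.07, edgeR adjusted p = 0.251) and Smad3, a transducer of TGF-beta signals (-0.19, SE 0.08, 0.533), came first. DESeq2 called 0 members of these 2 lists of partners.

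Of 8 determinants of the GABAergic lineage of the embryonic cerebellum, 5 had too few counts, among them Ptf1a, the gene that sets this lineage, with at most 2 counts per library, and Olig3 with 0 in every library. Hes1, which other cells of the adult tissue also make, had a log2 fold change of -0.31 (SE 0.17, edgeR adjusted p = 0.677).

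The genes whose profile over the 6 libraries was closest to the mean of the 9 were Prmt8, Mtss1, Lancl1, Pde9a and Lhx1os. Likeness was the root mean square distance between centred log2 CPM values, 0.03 for each of the 5, over the 10407 genes whose mean reached 10 CPM. Prmt8, an arginine methyltransferase gene of neurons, was at 118, 110 and 112 CPM in WT and 88.0, 85.8 and 95.7 CPM in KO (log2 fold change -0.33, SE 0.07, edgeR adjusted p = 0.158). Mtss1, which encodes a membrane-bending protein of dendritic spines, was at 198, 193 and 191 CPM in WT and 158, 149 and 171 CPM in KO (-0.28, SE 0.07, 0.226). None of the 5 passed the threshold. Of the 9 themselves, Ebf3 lay nearest to their own mean profile (0.07) and Lhx5 farthest (0.23).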

How the data were processed

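The values are raw counts of reads for each gene and library, deposited by the authors as 1 table with gene coordinates and lengths. The submitters' processing notes name STAR and mm10. How reads were counted, with or without strand, and against which annotation is not stated, so overlapping genes cannot be told apart. The labels list a RIN of 10 for all 6 libraries. Replicate numbers follow the order of deposit and pair no samples.

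Analysis ran in R 4.3.3. The test was edgeR's legacy quasi-likelihood test (version 4.0.16, robust) with sex and genotype as terms, leaving 3 residual degrees of freedom. The filter filterByExpr (minimum count of 10, minimum total of 15) kept 16934 genes, scaled with TMM factors. Two-sided p-values were corrected over all these genes by the Benjamini-Hochberg method, with 0.05 as threshold. The SE is the absolute log2 fold change over the square root of F. The biological coefficient of variation was 11.2%. Relative levels and ratios used log2 CPM with a prior count of 2. Alternatives were RLE factors, no filter, a filter at a mean of 1 CPM, limma-voom (limma 3.58.1), a model without sex, DESeq2 (1.42.0), the newer edgeR method, the 4 males alone, leaving out each library, and 0.10 as threshold. With either female left out, the sex term takes up the other female. Those fits and that of the 4 males therefore share 1 genotype contrast and are not separate alternatives. Removal of GC content and length trends as offsets (loess, span 0.5, GC content from GENCODE transcripts, known for 98.0% of genes), the interaction with sex and the ratios within families were added after seeing the data. The main edgeR fit and those of DESeq2 and limma-voom were tested on simulated counts. The offsets, the interaction, the relative levels and the ratios were not.

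The 9 genes and the lists were chosen with earlier results of these data known. Named genes were the 9, Tmem106b, from each list at most 4 genes that passed or, with none, the 2 of lowest p, the 5 nearest profiles, and Itpr1, Calb1 and Pcp2. Shh, Slc1a6, Lhx3, Rorb, Skor1 and Sall1 were named after their values were seen. Some genes that this rule names are not reported here. Promoter sequences are those of RefSeq.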

Additional observations from a re-analysis of the deposited data

Results flagged for a closer look

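The difference of Rora between KO and WT was near 0 in the females and below 0 in the males. The KO female was higher than the WT female by 0.0077 on the log2 CPM scale, while each KO male was lower than each WT male, with a mean difference of -0.20. With 1 female per genotype, the difference between the sexes, tested in edgeR as an interaction with genotype, did not pass (adjusted p = 0.325). The sign also differed between the sexes for Lhx5 (-0.65 for the females, 0.05 for the males) and Foxp1 (0.06 and -0.06). The trend with GC content and length at Rora was 0.15 in the KO female and -0.09 in the WT female.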

How the results depend on the processing

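The count of 48 genes past the threshold was 75 with RLE factors, 199 without a filter, 76 with a mean of at least 1 CPM, 232 in DESeq2, 111 in males only, 109 at a threshold of 0.10, 321 with GC and length offsets, and 1 to 156 with a library left out. The count of members called lower, 0, was 1 without a filter (Lhx1), 1 in DESeq2 (Lhx1), 2 with the offsets (Lhx1 and Foxp2), and 0 to 1 with a library left out (Foxp4 without KO replicate 3). No member was called higher in edgeR, DESeq2 or limma-voom under any setting run. The 9 list genes past the threshold became 18 in DESeq2, 19 with the offsets and 0 to 17 with a library left out. The median log2 fold change of the members was -0.21 in males only and -0.38 to -0.20 with a library left out. Without either female the fit rests on the males too, since the sex term takes up the other female. Lhx5 was at 0.086 in males only and ran from -0.45 to 0.10 with a library left out, and Foxp1 from -0.076 to 0.036. The other 7 members kept a value below 0 in all 15 alternative fits. The median difference of the members relative to Purkinje markers, 0.13, was 0.088 against the median of the markers, 0.22 in males only, 0.11 to 0.19 with a library left out and -0.33 as plain log2 CPM. The cause of these shifts was not tested. No paired analysis was possible because the labels give no replicate numbers. The sample titles hold codes, some shared between genotypes, whose meaning is not stated, and they were not used. Counting error limits Lhx5, Skor2 and Foxp2 most.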

Other observations

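Transcription factors of the other cerebellar cell classes held 0 calls in edgeR and 0 in DESeq2. Of 8 granule cell factors tested, 7 lay above 0 (median log2 fold change 0.08) and 3 had an unadjusted p under 0.05 in edgeR, a level that 4.71% of all genes reached in this direction. Neurod1, needed for granule cell survival, had 279 ± 6.90 CPM in the WT and 324 ± 5.95 CPM in the KO mice, and Zic1 724 ± 22.8 and 817 ± 13.9 CPM (SD, n = 3 each). In both, every KO mouse lay above every WT mouse, as in 7.77% of all genes, and neither passed (edgeR adjusted p = 0.275 and 0.448). Of 5 microglial factors 4 lay above 0 (median 0.48), 3 of them at an unadjusted p under 0.05. Irf8 had 2.12 ± 0.17 CPM in the WT and 3.11 ± 0.07 CPM in the KO mice (SD, n = 3 each).

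All 5 factors of astrocytes and Bergmann glia lay below 0 (median -0.15), led by Hopx (-0.23, SE 0.08, edgeR adjusted p = 0.395) and Sox9 (-0.19, SE 0.12, 0.722). The 5 oligodendrocyte factors did as well (median -0.25), led by Nkx2-2 (-0.30, SE 0.17, edgeR adjusted p = 0.676) and Sox10 (-0.25, SE 0.18, 0.742), and their median was -0.09 with GC and length offsets. Of the interneuron factors 3 of 5 were tested (median -0.00, Pax2 at -0.28 with SE 0.23, Tfap2a at 0.05 with SE 0.12), and of those of unipolar brush cells and deep nuclei 4 of 5 (median -0.01, Eomes at 0.20 with SE 0.14, Tbr1 at -0.42 with SE 0.31). The 7 choroid plexus markers had a median of 0.58, with Otx2 at 0.27 (SE 0.21) and Kcnj13 at 0.92 (SE 1.18). These markers were nearly absent from WT replicate 1, where they summed to 80.7 CPM. In WT replicates 2 and 3 they summed to 4688 and 3101 CPM, and in KO to 1616 to 5047 CPM. The endothelial and mural markers with the lowest p were Higd1b (0.37, SE 0.18) and Vtn (0.22, SE 0.13).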
